A study of Homo sapiens with 36 samples.

Results

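Genes of glycolysis and of the transcriptional response to low oxygen were followed in HK-2 cells, a human proximal tubule epithelial line, after exposure to agents named CdCl, Di and Kbr in the labels. The list held 37 genes chosen by their function, with earlier results of these data known. A gene was measured through the probe set of its symbol with the highest mean, if above 4 (log2) on at least 3 arrays. Of the 37, 34 were measured, out of 11092 genes tested on the arrays. ALDOC, the brain-type aldolase, stayed at or below 2.36 on every array, and SLC16A3 and CA9 had no probe set assigned to 1 gene.

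The 36 arrays formed 12 groups of 3 arrays, labelled as biological replicates, in 2 sets, each with its own vehicle controls. In the CdCl and Di set, control, CdCl and Di cells were harvested at 12 and 48 h. In the Kbr set, control cells and cells given a low or a high dose of Kbr were harvested at 24 and 48 h. All groups were grown in medium with 5 mM glucose, insulin and transferrin and were treated at about 90% confluency. The labels spell out neither the agents nor their doses, and the oxygen level of the cultures is not given in the sources used here. HK-2 is 1 immortalized line, and nothing in the labels says whether replicates were separate cultures on separate days, so that p-values measure the spread between these samples, which may be technical.

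Glycolysis turns glucose into pyruvate in the cytosol. Under low oxygen the transcription factor HIF-1, made of HIF1A and a constitutive partner, escapes the prolyl hydroxylases that mark HIF1A protein for destruction and raises glucose transporters, glycolytic enzymes, PDK1, VEGFA and ADM, and also feedback genes such as EGLN1 and EGLN3. HIF1A is mostly controlled at the protein level, which arrays do not measure. In the kidney the proximal tubule in situ relies largely on oxidative metabolism and makes glucose rather than burning it, while cultured tubule lines are commonly glycolytic.

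The largest rises in any comparison with control were those of ADM, SLC2A1, HK2, NDRG1, VEGFA and PDK1. The promoters of 4 of these members are shown, because the core letters of the hypoxia response element, ACGTG or GCGTG, can be looked for in them. The sequences are the 250 bases before the RefSeq start on GRCh38.p14, read 5′ to 3′ along the gene, with matches on either strand in capitals.
ADM chr11:10304823-10305072 plus strand: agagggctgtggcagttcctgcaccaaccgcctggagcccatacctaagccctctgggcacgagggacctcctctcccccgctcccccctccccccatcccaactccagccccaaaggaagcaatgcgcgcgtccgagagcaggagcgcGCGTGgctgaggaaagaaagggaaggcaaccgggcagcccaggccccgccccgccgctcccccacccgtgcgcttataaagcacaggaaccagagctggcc
SLC2A1 chr1:42958869-42959118 minus strand: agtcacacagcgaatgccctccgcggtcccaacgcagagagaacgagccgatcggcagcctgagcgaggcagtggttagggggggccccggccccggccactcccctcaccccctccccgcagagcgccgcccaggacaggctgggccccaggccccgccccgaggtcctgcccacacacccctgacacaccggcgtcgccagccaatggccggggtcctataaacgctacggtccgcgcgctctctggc
HK2 chr2:74834920-74835169 plus strand: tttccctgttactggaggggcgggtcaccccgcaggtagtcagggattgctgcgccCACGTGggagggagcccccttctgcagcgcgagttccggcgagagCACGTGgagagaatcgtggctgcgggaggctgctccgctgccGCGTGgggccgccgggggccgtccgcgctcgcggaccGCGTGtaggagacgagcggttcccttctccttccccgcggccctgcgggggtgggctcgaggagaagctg
PDK1 chr2:172555840-172556089 plus strand: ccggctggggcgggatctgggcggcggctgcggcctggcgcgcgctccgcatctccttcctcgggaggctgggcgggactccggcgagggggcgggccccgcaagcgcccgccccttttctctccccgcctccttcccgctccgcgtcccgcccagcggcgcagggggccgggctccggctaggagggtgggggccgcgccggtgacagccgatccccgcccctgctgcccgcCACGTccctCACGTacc
The window of ADM held 1 GCGTG. HK2 held 2 copies of CACGTG, which reads as ACGTG on both strands and so counts as 4 matches, and 2 GCGTG. PDK1 held 2 ACGTG, both on the strand opposite to the gene and within 17 bases of the start, and the SLC2A1 window held neither motif. HK2 and PDK1 each had 2 starts in the table, of which the start with the most matches is shown. Either motif lay before 2 of 2 HK2 starts but before only 1 of 2 PDK1 starts. Of the 34 measured members, 30 had a promoter in the RefSeq table, and 25 of them had either motif before at least 1 start. The matching share of all genes was not counted, and several starts raise this count: HK1 and PFKM each held a motif at 1 of 7 starts. By start, 35.7% of 56 member promoters held ACGTG against 18.5% of all 35116 promoters of that length, and 33.9% against 32.2% held GCGTG. Either motif was in 58.9% of member promoters and 43.2% of all promoters. These are matches of letters and do not show binding.

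On the arrays the labelled cell type was only partly borne out. Of 7 markers of tubular epithelium 6 were above the filter, among them KRT8, KRT18, EPCAM and PAX8. Of 8 proximal tubule markers CDH6, SLC3A1 and SLC4A4 were above it, and LRP2, CUBN, AQP1, GGT1 and ANPEP stayed below it. Of 9 fibroblast, endothelial and leukocyte markers, COL1A1 and DCN were above the filter and the other 7 below it. The summed log2 level of these 9 markers ran, at 48 h, from 36.9 to 37.8 on the Kbr set controls, from 33.2 to 33.8 on the low dose and from 32.4 to 33.6 on the high dose arrays, and at 24 h from 37.7 to 38.5, 35.7 to 36.5 and 34.6 to 35.9. In the CdCl and Di set it ran at 48 h from 35.7 to 36.2 on the controls, 36.4 to 36.8 with CdCl and 34.8 to 35.1 with Di, and at 12 h from 37.4 to 37.9, 37.7 to 38.2 and 37.3 to 37.7. With the other 7 below the filter, these sums moved mainly with COL1A1 and DCN. Their means at 48 h were 7.83 and 11.79 in the Kbr set controls and 5.25 and 9.85 at the high dose. The part of these markers in the results was not tested, and in these cultures fewer cells of a type and less RNA per cell cannot be told apart. Replicates of a group correlated at 0.982 to 0.995 over the 23599 probe sets above the filter.

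Values are log2 expression as deposited, so that 1 unit is a doubling. Differences are given as log2 with the standard error of the model, from 3 treated against 3 control arrays, and a gene is said to have risen or fallen where the Benjamini-Hochberg adjusted p of limma over all 11092 genes was under 0.05. For CdCl at 12 h, the Kbr doses against each other at 48 h and the change of the CdCl effect over time, centring moved the median of all genes by over 0.1, and differences are there given relative to that median (shifts of 0.16, 0.06 and 0.12), while p-values are of the unshifted difference. Levels of different genes are not compared, since probe sets differ in brightness. Genes named with array values were picked by the size of their change past the threshold, so groups without overlap add little for them. The share of all genes without overlap is given only for CdCl at 12 h, where it was 63%.

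**Figure D1:**
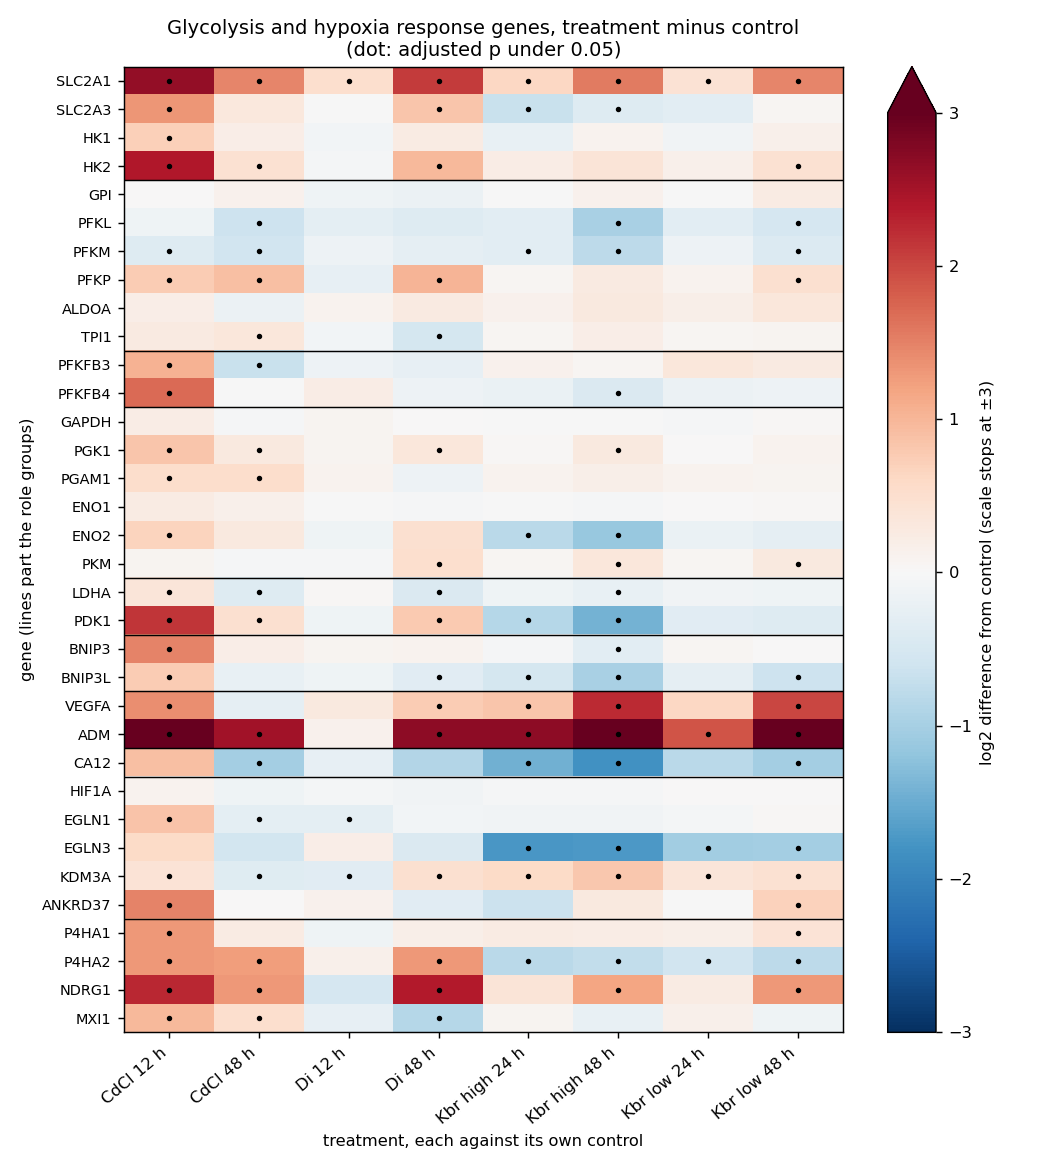
Log2 difference from the matched control for the 34 measured genes (rows, parted by role) in the 8 comparisons with control (columns), with a dot where the adjusted p was under 0.05. CdCl at 12 h raised 23 genes, Di at 12 h raised 1, and all 4 Kbr columns hold rises of ADM and SLC2A1 beside falls of P4HA2 and EGLN3. The colour scale stops at 3, which ADM passes after CdCl at 12 h and after Kbr at 48 h.

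CdCl at 12 h raised most of the list. Of the 34 measured members 23 rose (67.6%) and 1 fell, where 13.4% of all genes rose and 30.5% fell. The members' median difference was 0.79 against 0 for all genes. Since the list was chosen with earlier results of these data known, this excess is a description and not an independent test. After centring each array on its median, 25 members rose and 1 fell, beside 2094 and 2013 of all genes in place of 1484 and 3386. With the replicate number as a block in the fit, CA12 also rose (0.74 unshifted, adjusted p = 0.0221). The 3 CdCl arrays did not overlap the 3 controls for 28 members, while 63% of all genes did not overlap.

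All 4 genes of glucose uptake and trapping rose. SLC2A1, the basal glucose transporter GLUT1, read 9.32, 9.55 and 9.66 on the CdCl arrays and 7.22, 6.99 and 6.90 on the controls, a rise of 2.64 ± 0.13 or 6.22-fold (adjusted p = 9.47e-15). HK2, the inducible hexokinase that phosphorylates glucose and so keeps it in the cell, read 10.36, 10.27 and 10.35 against 8.06, 8.16 and 8.07, 2.39 ± 0.17 or 5.25-fold (adjusted p = 4.47e-11). The lowest treated array lay above the highest control for both genes. HK2 had 3 probe sets above the filter, and a dim one, with a mean of 4.06, moved the other way (-1.05, adjusted p = 0.000591), while the third read -0.22. SLC2A3 (GLUT3) rose by 1.33 ± 0.15 and HK1 by 0.70 ± 0.12.

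Among the enzymes of the pathway itself the change was smaller and partial. The 2 PFKFB genes, whose products make and break the activator of phosphofructokinase, rose: PFKFB4 from 5.04, 4.75 and 4.74 to 6.20, 6.70 and 6.27 (1.71 ± 0.13, 3.26-fold, adjusted p = 3.64e-10) and PFKFB3 by 1.03 ± 0.17. Of 6 upper glycolysis genes measured, the platelet-type phosphofructokinase PFKP rose by 0.76 ± 0.13 and the muscle-type PFKM fell. PFKM read 8.95, 9.13 and 9.04 with CdCl and 9.53, 9.72 and 9.51 in the controls (-0.38 ± 0.13, adjusted p = 0.000978), without overlap, and was the member that fell. GPI (0.02), ALDOA (0.21), TPI1 (0.28) and PFKL (-0.14) did not pass the test. Of 6 lower glycolysis genes, PGK1, ENO2 and PGAM1 rose, by 0.82, 0.68 and 0.53.

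At the pyruvate branch PDK1, the kinase that inhibits pyruvate dehydrogenase, rose from 8.23, 8.26 and 8.28 to 10.20, 10.23 and 10.30 (2.15 ± 0.16, 4.45-fold, adjusted p = 1.43e-10). Its 2 probe sets both passed the test here. LDHA, which reduces pyruvate to lactate, lay between 14.81 and 14.85 on the CdCl arrays and between 14.59 and 14.69 on the controls, a difference of 0.36 ± 0.07 relative to the median (adjusted p = 0.0322). The groups were apart, but by little, for this bright gene.

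The hypoxia targets outside glycolysis held the widest change. ADM, the vasodilator peptide adrenomedullin, read 10.69, 10.75 and 10.93 against 7.30, 7.05 and 7.52, a rise of 3.66 ± 0.21 or 12.6-fold (adjusted p = 1.79e-13). NDRG1, a stress-responsive gene induced by hypoxia and by iron chelation, read 10.55, 10.61 and 10.71 against 8.47, 8.53 and 8.57 (2.26 ± 0.26, 4.8-fold, adjusted p = 3.1e-07). Each of the 6 treated values was above every control value of its gene. VEGFA, the angiogenic growth factor, rose by 1.39 ± 0.26, and all 4 of its probe sets passed. The mitophagy receptors BNIP3 and BNIP3L rose by 1.49 ± 0.12 and 0.76 ± 0.11, the collagen prolyl hydroxylase subunits P4HA2 and P4HA1 by 1.31 ± 0.10 and 1.30 ± 0.12, and MXI1, an antagonist of MYC, by 0.97 ± 0.10.

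Of 5 genes of oxygen sensing and feedback, ANKRD37 (1.48 ± 0.27), EGLN1 (0.86 ± 0.09), the main prolyl hydroxylase acting on HIF1A, and the histone demethylase KDM3A (0.42 ± 0.10) rose. EGLN3, the hydroxylase with the strongest usual induction by hypoxia, differed by 0.57 ± 0.35 and did not pass (adjusted p = 0.373). HIF1A did not pass in any of the 8 comparisons with control: its group means ran from 14.14 to 14.36, and for CdCl at 12 h its unshifted difference was -0.06 with a 95% interval from -0.22 to 0.10. GAPDH, the glycolytic enzyme often used as a reference gene, had group means from 15.28 to 15.39 and passed in none either, centred values included (lowest adjusted p 0.0976 after centring, 0.544 otherwise). With 1 array left out at a time, these calls for CdCl at 12 h were lost: KDM3A in 6 of 6 fits (highest adjusted p 0.159, without CdCl array 2 at 12 h), ENO2 in 5 of 6 fits (highest adjusted p 0.206, without control array 1 at 12 h) and LDHA in 5 of 6 fits (highest adjusted p 0.0989, without control array 3 at 12 h). Other settings ended the calls of ENO2 and KDM3A without a filter (adjusted p = 0.0863 and 0.0529).

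**Figure D2:**
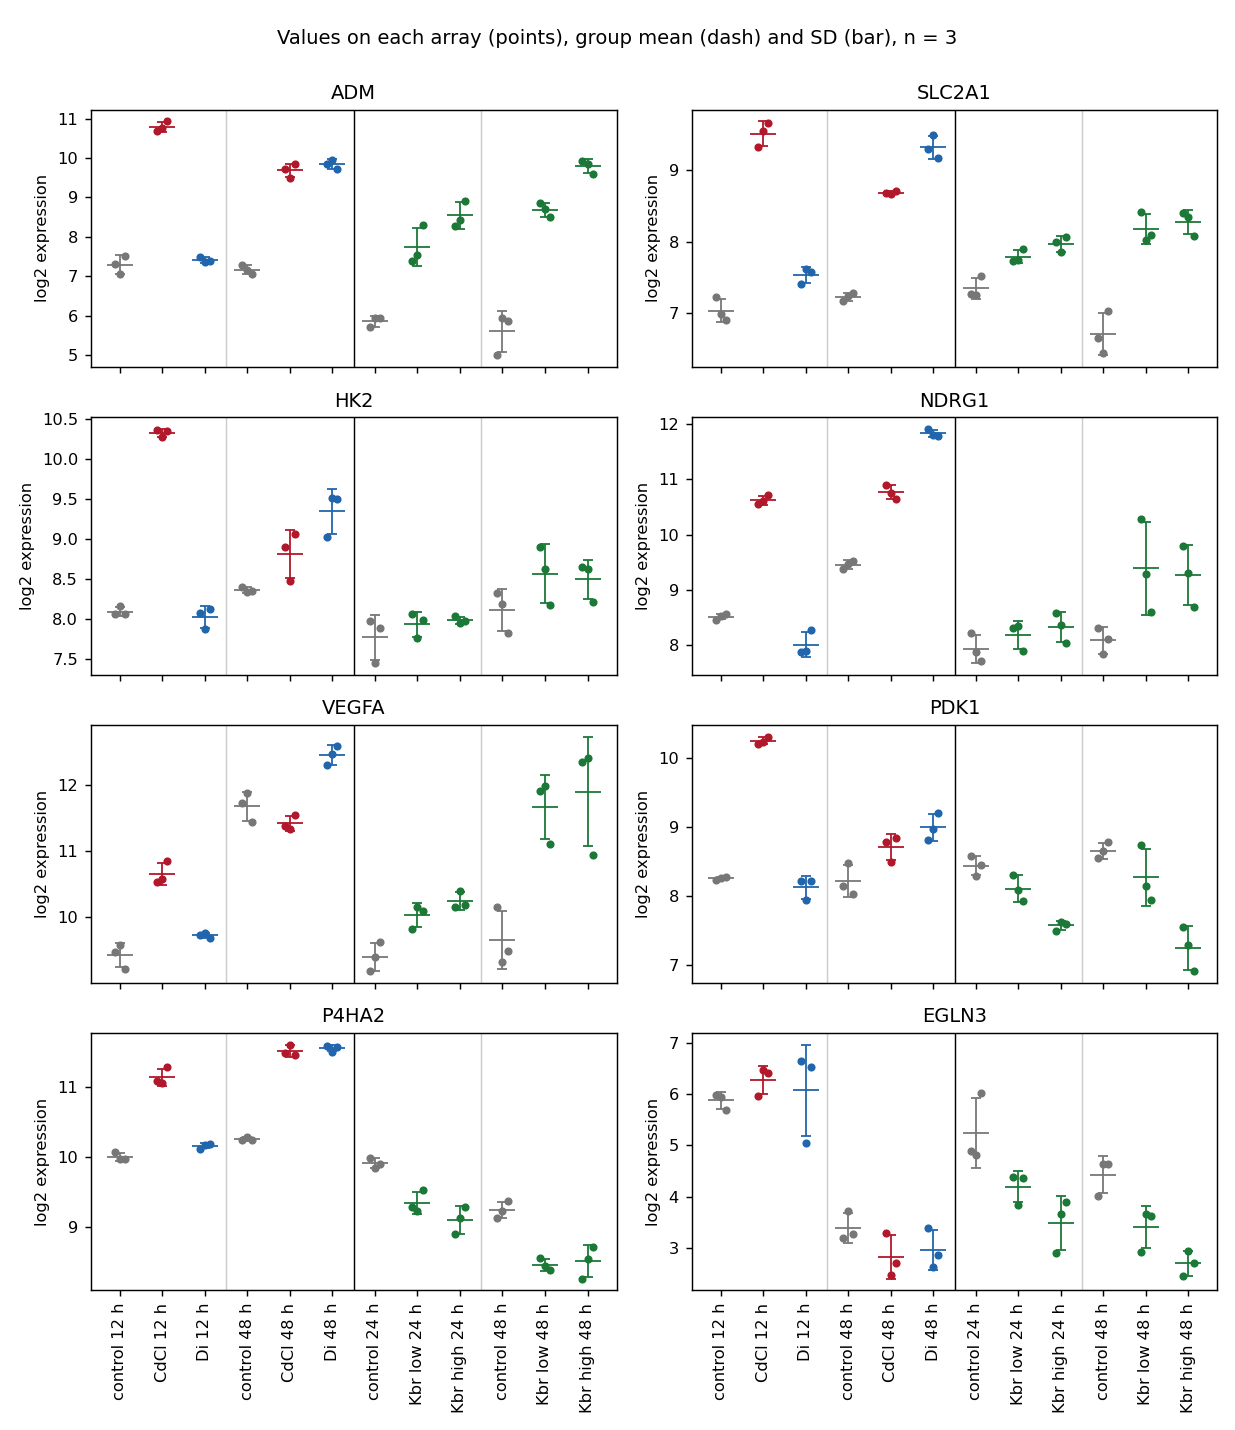
Log2 expression of 8 genes on each of the 36 arrays (points), with group means (dashes) and SD (bars, n = 3), the CdCl and Di set left of the black line and the Kbr set right of it. ADM lies between 10.69 and 10.93 on the CdCl arrays at 12 h and between 7.05 and 7.52 on their controls, and PDK1 is above its controls with CdCl and below them with the high dose of Kbr.

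By 48 h the CdCl response had narrowed to part of the list. 11 members rose and 7 fell (32.4% and 20.6%), with 20.7% and 22% of all genes, and the median was 0.15 against -0.01. The share that rose was above the background and the share that fell near it. With the replicate number as a block, 12 members rose and 9 fell, beside 2690 and 2791 of all genes. The added ones were ENO1 (0.16, adjusted p = 0.0158), ALDOA (-0.18, adjusted p = 0.0448) and BNIP3L (-0.23, adjusted p = 0.045).

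ADM again differed most, with 9.71, 9.50 and 9.84 on the CdCl arrays and 7.28, 7.16 and 7.05 on the controls (2.52 ± 0.21, 5.74-fold, adjusted p = 1.1e-10). SLC2A1 read 8.69, 8.67 and 8.70 against 7.17, 7.23 and 7.28 (1.46 ± 0.13, 2.75-fold, adjusted p = 4.96e-10). Both genes were separated from their controls on every array. NDRG1 read 10.90, 10.76 and 10.64 against 9.38, 9.47 and 9.53 (1.31 ± 0.26, adjusted p = 0.00019). P4HA2, a catalytic subunit of the enzyme that hydroxylates collagen, read 11.49, 11.62 and 11.46 against 10.25, 10.29 and 10.24 (1.27 ± 0.10, 2.4-fold, adjusted p = 8.5e-11). PFKP read 10.85, 10.80 and 10.89 against 9.82, 9.95 and 10.07 (0.90 ± 0.13), and PGAM1, phosphoglycerate mutase, read 13.19, 13.26 and 13.31 against 12.63, 12.74 and 12.79 (0.53 ± 0.10). None of these 4 overlapped its controls. The smaller rises were MXI1 0.51, PDK1 0.49, HK2 0.45, TPI1 0.35 and PGK1 0.30.

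Among the genes that fell with CdCl at 48 h were 2 forms of phosphofructokinase and 1 of its regulators. PFKFB3, the inducible PFKFB kinase, read 8.85, 8.50 and 8.89 against 9.51, 9.42 and 9.31 (-0.66 ± 0.17, adjusted p = 0.0025), and PFKL, the liver-type phosphofructokinase, read 7.41, 6.80 and 6.95 against 7.51, 7.69 and 7.81 (-0.62 ± 0.19, adjusted p = 0.00869). CA12, a membrane carbonic anhydrase, read 6.35, 6.23 and 6.38 against 7.19, 7.36 and 7.49 without overlap, with a wide standard error, which the model takes from all 12 groups (-1.03 ± 0.41, adjusted p = 0.0443). The other falls were PFKM -0.57, LDHA -0.38, KDM3A -0.36 and EGLN1 -0.30. With 1 array left out at a time, calls were lost for CA12 in 6 of 6 fits (highest adjusted p 0.109, without control array 3 at 48 h) and HK2 in 5 of 6 fits (highest adjusted p 0.178, without CdCl array 3 at 48 h). Others lost were PDK1 in 4 of 6 fits (highest adjusted p 0.0883, without control array 3 at 48 h), KDM3A in 1 of 6 fits (highest adjusted p 0.0501, without CdCl array 2 at 48 h) and PFKL in 1 of 6 fits (highest adjusted p 0.0619, without CdCl array 2 at 48 h). Among other settings, calls were lost for HK2 and CA12 without a filter (adjusted p = 0.0627 and 0.0888) and CA12 after centring (adjusted p = 0.0503). Further ones were CA12 after quantile normalization (adjusted p = 0.0563), HK2 and CA12 with probe sets averaged (adjusted p = 0.859 and 0.0609) and PGK1 with the compared groups alone. HK2 read 0.03 with its probe sets averaged.

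The change of the CdCl effect between the times was tested directly. From 12 to 48 h the CdCl effect became lower for 17 members, with 7.78% of all genes lower and 16.4% higher, and the members' median change was -0.72. After centring, 18 members became lower, and all genes split into 1047 higher and 1256 lower in place of 1824 and 863. The blocked fit added TPI1 (0.23, adjusted p = 0.0488), NDRG1 (-0.80, adjusted p = 0.0176) and MXI1 (-0.30, adjusted p = 0.0291), here unshifted. The largest changes were in HK2 (-1.90 ± 0.24, adjusted p = 7.51e-06), CA12 (-1.88 ± 0.58, adjusted p = 0.0272), PFKFB4 (-1.68 ± 0.19, adjusted p = 1.24e-06) and PFKFB3 (-1.66 ± 0.24, adjusted p = 5.06e-05). With its probe sets averaged, the HK2 change was -0.29 (unshifted) and did not pass (adjusted p = 0.252). Of the 23 members that rose at 12 h, 10 also rose at 48 h (43.5%), which is 90.9% of the 11 that rose then. The same overlap was not counted over all genes. PFKFB3, LDHA, EGLN1 and KDM3A were raised at 12 h and lowered at 48 h, each against the control of that time. Leaving out 1 of the 12 arrays ended the call for CA12 in 5 of 12 fits (highest adjusted p 0.0619, without CdCl array 2 at 12 h), PGK1 in 3 of 12 fits (highest adjusted p 0.088, without CdCl array 2 at 48 h) and ADM in 1 of 12 fits (highest adjusted p 0.0507, without control array 2 at 12 h). The CA12 call was also lost without a filter (adjusted p = 0.0564) and that of PGK1 with the compared groups alone (adjusted p = 0.0519).

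**Figure D3:**
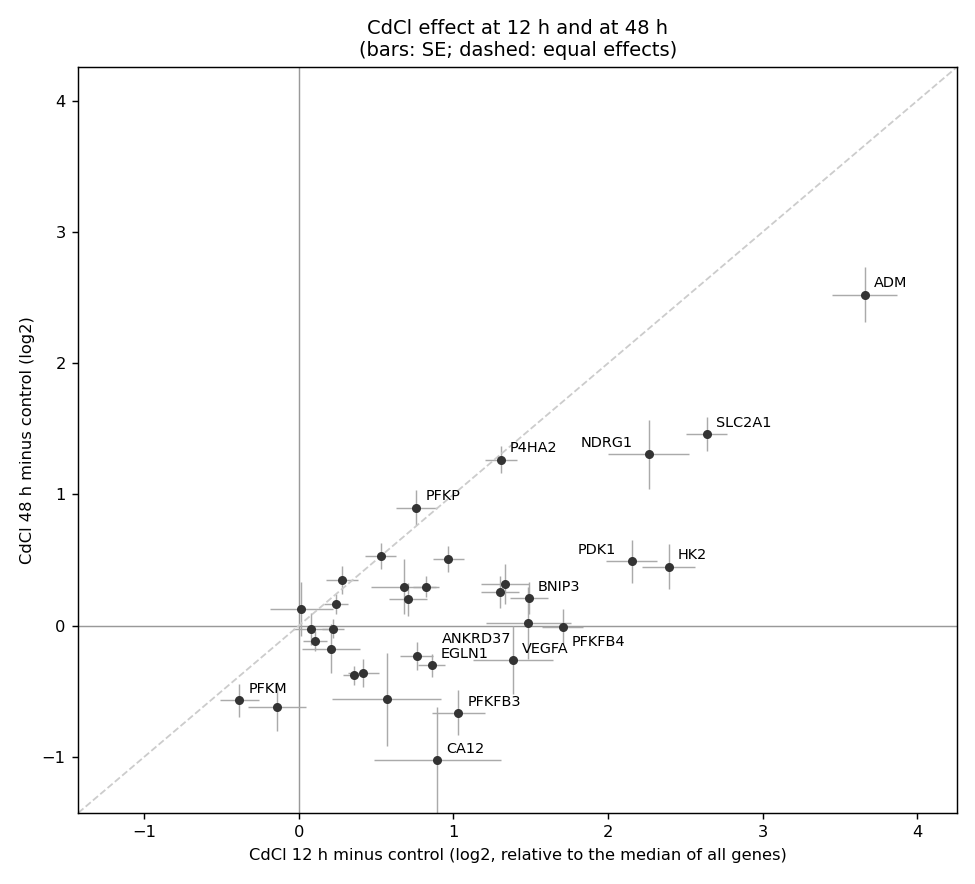
Log2 difference from control with CdCl at 12 h (horizontal, relative to the median of all genes) and at 48 h (vertical) for the 34 measured genes, with SE bars and a dashed line of equal effects. P4HA2 (1.31 and 1.27) and PFKP (0.76 and 0.90) lie near the line, and HK2, PFKFB4 and PFKFB3 lie far below it.

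The controls themselves moved between 12 and 48 h. VEGFA read 11.73, 11.87 and 11.44 in controls at 48 h and 9.48, 9.59 and 9.23 at 12 h, a rise of 2.25 ± 0.26 or 4.75-fold (adjusted p = 6.85e-08). EGLN3 read 3.18, 3.71 and 3.26 at 48 h and 5.99, 5.94 and 5.70 at 12 h, at least 3.67-fold lower, since its 48 h values were under 4 (adjusted p = 1.65e-06). Neither gene overlapped between the times. In all, 5 members rose and 13 fell in these controls, with 18.3% and 27.3% of all genes; after centring, all genes split into 2591 and 2476 in place of 2032 and 3032, and the members into 7 and 12. ANKRD37 (1.04 ± 0.27), NDRG1 (0.94 ± 0.26) and MXI1 (0.65 ± 0.10) rose with time, and HK1 (-1.20 ± 0.12), PKM (-0.92 ± 0.12), the enzyme of the last glycolytic step, and PGAM1 (-0.82 ± 0.10) fell. PGK1, ENO1, TPI1, GPI and LDHA were also among the 13 that fell. With the replicate number as a block, ALDOA (-0.41, adjusted p = 4.1e-05) and PFKL (-0.43, adjusted p = 0.00746) fell too. The calls lost with 1 array left out were P4HA2 in 6 of 6 fits (highest adjusted p 0.112, without control array 3 at 12 h) and ENO2 in 5 of 6 fits (highest adjusted p 0.148, without control array 2 at 12 h). ENO2 also lost its call without a filter, after centring and after quantile normalization (adjusted p = 0.0838, 0.0998 and 0.0594) and P4HA2, which had risen by 0.25 ± 0.10, without a filter (0.0552), and with its probe sets averaged it turned to -0.10 (0.72).

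Di did little to the list at 12 h. 1 member rose and 2 fell, near the 1.67% and 4.6% of all genes, and the median was -0.07, as for all genes. SLC2A1 read 7.41, 7.62 and 7.57 against 7.22, 6.99 and 6.90 (0.50 ± 0.13, adjusted p = 0.0227). KDM3A read 8.87, 8.52 and 8.86 against 9.06, 9.11 and 9.10 (-0.34 ± 0.10, adjusted p = 0.0454), and EGLN1 read 10.54, 10.55 and 10.62 against 10.78, 10.91 and 10.89 (-0.29 ± 0.09, adjusted p = 0.0437). The groups did not overlap for these genes, but other settings ended the calls of EGLN1 and KDM3A after centring (adjusted p = 0.174 and 0.11) and EGLN1 and KDM3A after quantile normalization (adjusted p = 0.0711 and 0.0665). Further ones were EGLN1 with probe sets averaged (adjusted p = 0.0859) and SLC2A1, EGLN1 and KDM3A with the compared groups alone. After centring, all genes split into 293 higher and 253 lower in place of 185 and 510. MXI1 also fell with the replicate number as a block (-0.24, adjusted p = 0.0322). With 1 array left out, calls were lost for EGLN1 in 6 of 6 fits (highest adjusted p 0.153, without control array 2 at 12 h), KDM3A in 4 of 6 fits (highest adjusted p 0.273, without Di array 2 at 12 h) and SLC2A1 in 4 of 6 fits (highest adjusted p 0.11, without control array 3 at 12 h). The ADM difference was 0.12 ± 0.21 and that of NDRG1 -0.51 ± 0.26, neither past the test. A second, dimmer probe set of PDK1 did rise (1.33, adjusted p = 0.00103), where the one used read -0.13. The 3′ to 5′ difference of the ACTB control probe sets, a measure of RNA and labelling quality, was 1.40 ± 0.16 (SD, n = 3) on the Di arrays at 12 h and 1.84 ± 0.14 on their controls; its part in the results was not tested.

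At 48 h Di raised ADM, NDRG1 and SLC2A1 most and lowered MXI1, TPI1 and LDHA. 12 members rose and 4 fell (35.3% and 11.8%), with 19.1% and 23.9% of all genes, and the median was 0.06 against -0.01. With the replicate number as a block, 15 rose and 7 fell, beside 2549 and 3012 of all genes. The added rises were ALDOA (0.28, adjusted p = 0.00211), ENO2 (0.48, adjusted p = 0.00852) and HK1 (0.24, adjusted p = 0.0422). CA12 (-0.89, adjusted p = 0.00667), PFKL (-0.39, adjusted p = 0.0137) and PFKM (-0.26, adjusted p = 0.0275) were the added falls.

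ADM read 9.85, 9.96 and 9.71 on the Di arrays against 7.28, 7.16 and 7.05 (2.68 ± 0.21, 6.4-fold, adjusted p = 2.42e-11), and NDRG1 read 11.91, 11.79 and 11.79 against 9.38, 9.47 and 9.53 (2.37 ± 0.26, 5.18-fold, adjusted p = 2.02e-08). SLC2A1 read 9.29, 9.49 and 9.17 against 7.17, 7.23 and 7.28 (2.09 ± 0.13, 4.27-fold, adjusted p = 2.52e-13). All 9 treated values lay above the controls of their gene. P4HA2 read 11.60, 11.51 and 11.58 (1.30 ± 0.10, adjusted p = 3.33e-11), PFKP read 11.06, 10.99 and 10.85 (1.02 ± 0.13) and HK2 read 9.02, 9.51 and 9.50 (0.98 ± 0.17), where the HK2 controls read 8.41, 8.34 and 8.35. The smaller rises were SLC2A3 0.83, PDK1 0.78, VEGFA 0.77, PKM 0.49, KDM3A 0.49 and PGK1 0.33.

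Among the calls made without the block, MXI1, TPI1 and LDHA fell most with Di at 48 h. MXI1 read 9.06, 8.89 and 8.94 against 9.85, 9.76 and 9.84 (-0.86 ± 0.10, adjusted p = 5.57e-08), TPI1, triosephosphate isomerase, read 11.84, 11.74 and 11.76 against 12.27, 12.34 and 12.30 (-0.53 ± 0.10), and LDHA read 13.74, 13.53 and 13.64 against 13.97, 14.13 and 14.11 (-0.43 ± 0.07). BNIP3L fell by 0.34 ± 0.11. Leaving out 1 array ended the calls of BNIP3L in 2 of 6 fits (highest adjusted p 0.0581, without control array 2 at 48 h) and VEGFA in 2 of 6 fits (highest adjusted p 0.0817, without control array 3 at 48 h). With its probe sets averaged, BNIP3L differed by -0.11 and did not pass (adjusted p = 0.364).

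From 12 to 48 h the Di effect became higher for 10 members and lower for 3, with 15.1% and 13.9% of all genes. NDRG1 (2.88 ± 0.37, adjusted p = 8.18e-07), ADM (2.56 ± 0.30, adjusted p = 1.45e-07) and SLC2A1 (1.59 ± 0.18, adjusted p = 1.55e-07) gained most. With probe sets averaged, HK2 and PDK1 lost their calls (0.44 and 0.34, adjusted p = 0.0638 and 0.308). The replicate block added ENO2 (0.60, adjusted p = 0.0245). The difference between the CdCl and Di changes was not itself tested.

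Set directly against each other at 12 h, CdCl was above Di for 22 members and below it for 1 (all genes 13.6% and 22.1%). After centring, all genes split into 1828 and 1792 in place of 1505 and 2449, and 23 members were higher. In the blocked fit CA12 (0.97, adjusted p = 0.00408) and TPI1 (0.20, adjusted p = 0.0128) were also higher with CdCl. ADM (3.38 ± 0.21), NDRG1 (2.61 ± 0.26), HK2 (2.30 ± 0.17) and PDK1 (2.12 ± 0.16) differed most, and PFKM was lower with CdCl (-0.40 ± 0.13). The doses of the agents are not in the labels, so these values compare the cultures as treated. The calls lost with 1 array left out were PGAM1 in 5 of 6 fits (highest adjusted p 0.106, without Di array 3 at 12 h), ENO2 in 3 of 6 fits (highest adjusted p 0.114, without Di array 1 at 12 h) and PFKM in 2 of 6 fits (highest adjusted p 0.0709, without Di array 2 at 12 h). Other settings ended those of PGAM1 after quantile normalization (adjusted p = 0.0567) and ENO2 with the compared groups alone.

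At 48 h CdCl was above Di for 4 members and below it for 8, with 20.5% and 17.1% of all genes. After centring the members were 3 and 11, and all genes 2036 and 2153 in place of 2274 and 1901. MXI1 (1.36 ± 0.10), TPI1 (0.87 ± 0.10) and PGAM1 (0.68 ± 0.10) were higher with CdCl, and ENO1 by 0.19 ± 0.07, which turned to -0.01 when its probe sets were averaged (adjusted p = 0.937). NDRG1 (-1.07 ± 0.26), VEGFA (-1.03 ± 0.26), KDM3A (-0.85 ± 0.10) and SLC2A1 (-0.63 ± 0.13) were higher with Di. For ADM the difference was -0.16 ± 0.21 with a 95% interval from -0.58 to 0.27. With the replicate block GPI (0.30, adjusted p = 0.00508) was also higher with CdCl. ALDOA (-0.46, adjusted p = 1.5e-05), PFKFB3 (-0.43, adjusted p = 0.00146) and PFKM (-0.31, adjusted p = 0.0126) were lower with CdCl in that fit. Leaving out 1 array ended the calls of ENO1 in 6 of 6 fits (highest adjusted p 0.173, without Di array 2 at 48 h) and EGLN1 in 5 of 6 fits (highest adjusted p 0.168, without CdCl array 2 at 48 h). Others lost were HK2 in 3 of 6 fits (highest adjusted p 0.134, without CdCl array 2 at 48 h) and SLC2A3 in 1 of 6 fits (highest adjusted p 0.0529, without CdCl array 2 at 48 h). Further calls were lost for ENO1 after centring (adjusted p = 0.187) and EGLN1 after quantile normalization (adjusted p = 0.054). Further ones were HK2, ENO1 and EGLN1 with the compared groups alone.

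With Kbr, ADM, SLC2A1 and KDM3A rose and P4HA2 and EGLN3 fell at both doses and both times, in comparisons that share the controls of each time. At the high dose and 24 h, 4 members rose and 8 fell, with 15.4% and 25.3% of all genes, so the shares (11.8% and 23.5%) were near the background. After centring, 5 members rose and 7 fell, and all genes split into 2293 and 2207 in place of 1711 and 2806. Same-numbered arrays of the Kbr set deviated together, and with the replicate number as a block ANKRD37 (-0.65, adjusted p = 0.0452) and PFKL (-0.31, adjusted p = 0.0494) also fell at this dose and time.

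ADM read 8.27, 8.43 and 8.92 at the high dose and 5.70, 5.94 and 5.93 in the controls (2.68 ± 0.21, 6.42-fold, adjusted p = 1.89e-10). VEGFA read 10.15, 10.40 and 10.19 against 9.20, 9.40 and 9.62 (0.84 ± 0.26, adjusted p = 0.0113), SLC2A1 read 7.99, 7.85 and 8.06 against 7.26, 7.26 and 7.51 (0.62 ± 0.13, adjusted p = 0.000406), and KDM3A read 9.79, 9.64 and 9.39 against 9.06, 9.15 and 8.90 (0.57 ± 0.10). In each of these 4 genes every treated array was above every control.

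EGLN3 read 2.89, 3.66 and 3.90 against 4.89, 4.80 and 6.02, at least 2.36-fold lower, since its treated mean was under 4 (adjusted p = 0.000248). PDK1 read 7.50, 7.63 and 7.60 against 8.57, 8.30 and 8.45 (-0.86 ± 0.16, adjusted p = 0.000123), and its dimmer probe set read -0.54 and did not pass. CA12 read 7.33, 7.57 and 6.07 against 9.07, 8.87 and 7.38 (-1.45 ± 0.41, adjusted p = 0.00579), with overlapping groups and with replicate 3 lowest in both. Each high dose array of CA12 was below the control array of the same number. The other falls were P4HA2 -0.81, ENO2 -0.80, SLC2A3 -0.66, BNIP3L -0.53 and PFKM -0.32. The calls lost with 1 array left out were PFKM in 3 of 6 fits (highest adjusted p 0.336, without Kbr set control array 1 at 24 h), CA12 in 2 of 6 fits (highest adjusted p 0.0698, without high dose array 3 at 24 h) and VEGFA in 1 of 6 fits (highest adjusted p 0.0567, without Kbr set control array 1 at 24 h). Those lost in other settings were PFKM without a filter (adjusted p = 0.0684) and PFKM after centring (adjusted p = 0.164). Further ones were PFKM after quantile normalization (adjusted p = 0.0501) and PFKM and CA12 with the compared groups alone.

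At 48 h the high dose raised 7 members and lowered 12 (20.6% and 35.3%), near the 27.3% and 34.5% of all genes. The median was 0.03 against -0.06. After centring 12 members rose and 10 fell, and all genes split into 3509 and 3373 in place of 3031 and 3824. With the replicate block HK2 (0.38, adjusted p = 0.0317), PFKP (0.26, adjusted p = 0.0174), ALDOA (0.28, adjusted p = 0.00116) and TPI1 (0.19, adjusted p = 0.00995) also rose and MXI1 (-0.22, adjusted p = 0.0124) fell.

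ADM reached its widest difference here, 9.92, 9.85 and 9.59 against 4.99, 5.95 and 5.85 (4.19 ± 0.21, 18.3-fold, adjusted p = 2.73e-15). VEGFA read 12.35, 12.41 and 10.95 against 10.15, 9.33 and 9.49 (2.24 ± 0.26, 4.73-fold, adjusted p = 2.54e-08), with replicate 3 the lowest treated array. Both genes were without overlap. SLC2A1 read 8.40, 8.34 and 8.08 against 6.65, 6.44 and 7.03 (1.57 ± 0.13), NDRG1 read 9.79, 9.31 and 8.70 against 8.32, 7.84 and 8.12 (1.18 ± 0.26), and KDM3A read 10.22, 10.14 and 9.96 against 9.34, 9.26 and 9.32 (0.80 ± 0.10). These 3 genes also stood clear of their controls. PKM read 13.41, 13.35 and 13.53 against 13.19, 12.85 and 13.26 (0.33 ± 0.12), also without overlap, and PGK1 rose by 0.29 ± 0.08.

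PDK1 read 7.55, 7.28 and 6.92 at the high dose against 8.54, 8.65 and 8.78, 2.65-fold lower (-1.41 ± 0.16, adjusted p = 2.48e-08), and its second probe set also fell (-0.96). CA12 read 6.97, 7.65 and 7.21 against 9.82, 9.31 and 8.17 (-1.82 ± 0.41, adjusted p = 0.000351), and EGLN3 read 2.45, 2.93 and 2.71 against 4.01, 4.64 and 4.63, at least 1.34-fold lower. All 3 genes were without overlap, though the EGLN3 values were dim in both groups. Both mitophagy receptors fell, BNIP3L by 0.98 ± 0.11 and BNIP3 by 0.33 ± 0.12. The remaining falls were ENO2 -1.14, PFKL -0.97, PFKM -0.78, P4HA2 -0.74, PFKFB4 -0.44, SLC2A3 -0.38 and LDHA -0.22. Leaving out 1 array ended the calls of SLC2A3 in 4 of 6 fits (highest adjusted p 0.298, without Kbr set control array 3 at 48 h) and BNIP3 in 2 of 6 fits (highest adjusted p 0.15, without Kbr set control array 1 at 48 h). Others lost were PKM in 2 of 6 fits (highest adjusted p 0.167, without Kbr set control array 2 at 48 h), PFKFB4 in 1 of 6 fits (highest adjusted p 0.0646, without high dose array 3 at 48 h) and LDHA in 1 of 6 fits (highest adjusted p 0.107, without high dose array 1 at 48 h). In other settings the calls lost were SLC2A3 without a filter (adjusted p = 0.0543) and SLC2A3 and LDHA after centring (adjusted p = 0.091 and 0.297). Further ones were PKM after quantile normalization (adjusted p = 0.0728) and SLC2A3, PFKFB4, PGK1, PKM, LDHA and BNIP3 with the compared groups alone. LDHA read -0.12 after centring.

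The high dose effect changed from 24 to 48 h for 4 members: ADM (1.51 ± 0.30), VEGFA (1.40 ± 0.37) and SLC2A1 (0.95 ± 0.18) gained and BNIP3L (-0.45 ± 0.15) lost, with 6.89% and 8.1% of all genes. With the replicate number as a block, 8 of 34 members passed, beside 2668 of all 11092 genes in place of 1663. The added ones were NDRG1 (0.78, adjusted p = 0.0279), PFKL (-0.66, adjusted p = 0.0106), PFKM (-0.46, adjusted p = 0.017) and MXI1 (-0.29, adjusted p = 0.0445). Without 1 array, the call was lost for BNIP3L in 9 of 12 fits (highest adjusted p 0.156, without Kbr set control array 3 at 24 h). Other settings ended those of BNIP3L without a filter (adjusted p = 0.0504) and BNIP3L with probe sets averaged (adjusted p = 0.0913). Further ones were BNIP3L and VEGFA with the compared groups alone.

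At the low dose and 24 h, 3 members rose and 2 fell, with 6.93% and 8.28% of all genes. ADM read 7.39, 7.54 and 8.29 (1.89 ± 0.21, 3.69-fold, adjusted p = 8.37e-07), above all 3 controls, as were all arrays of the other two genes that rose. SLC2A1 read 7.73, 7.75 and 7.89 (0.44 ± 0.13) and KDM3A read 9.40, 9.52 and 9.30 (0.37 ± 0.10). P4HA2 read 9.28, 9.23 and 9.53 against 9.98, 9.85 and 9.91 (-0.56 ± 0.10), and EGLN3 read 4.37, 3.84 and 4.37 against 4.89, 4.80 and 6.02 (-1.04 ± 0.35, adjusted p = 0.0436), both without overlap. In the blocked fit, 8 of 34 members passed, beside 2720 of all 11092 genes in place of 1687. The added ones were PFKFB3 (0.34, adjusted p = 0.0164), BNIP3L (-0.27, adjusted p = 0.0427) and CA12 (-0.81, adjusted p = 0.0264). Calls lost with 1 array left out were EGLN3 in 5 of 6 fits (highest adjusted p 0.237, without Kbr set control array 3 at 24 h), SLC2A1 in 3 of 6 fits (highest adjusted p 0.0966, without Kbr set control array 1 at 24 h) and KDM3A in 2 of 6 fits (highest adjusted p 0.0795, without low dose array 2 at 24 h). Other settings ended those of EGLN3 without a filter (adjusted p = 0.0902) and SLC2A1, EGLN3, KDM3A and P4HA2 with the compared groups alone.

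At the low dose and 48 h, 10 members rose and 6 fell (29.4% and 17.6%), with 23.8% and 23.2% of all genes. ADM read 8.85, 8.71 and 8.49 (3.09 ± 0.21, 8.5-fold), VEGFA 11.92, 11.98 and 11.11 (2.01 ± 0.26) and NDRG1 10.28, 9.29 and 8.60 (1.30 ± 0.26). The NDRG1 arrays spread widely, replicate 3 being only slightly above the highest control. SLC2A1 read 8.42, 8.03 and 8.09 (1.47 ± 0.13) and PFKP 11.10, 10.66 and 10.81 against 10.40, 10.16 and 10.54 (0.49 ± 0.13), both clear of their controls. ANKRD37 also rose (0.69 ± 0.27) and read 7.09, 6.97 and 6.05 against 6.42, 5.75 and 5.87 with overlap, though each array was above the control of its number. P4HA2 read 8.55, 8.43 and 8.38 against 9.13, 9.23 and 9.37 (-0.79 ± 0.10, adjusted p = 6.19e-07), without overlap. CA12 read 7.97, 8.48 and 7.80 (-1.02 ± 0.41) and overlapped its controls, though each array was below the control of its number. EGLN3 read 2.93, 3.66 and 3.62, below all controls and at least 1.34-fold lower. With the replicate block PDK1 (-0.38, adjusted p = 0.0382), GPI (0.25, adjusted p = 0.0138), ALDOA (0.33, adjusted p = 0.000411) and PFKFB3 (0.27, adjusted p = 0.0273) also passed. Calls lost with 1 array left out were ANKRD37 in 4 of 6 fits (highest adjusted p 0.192, without low dose array 1 at 48 h), CA12 in 4 of 6 fits (highest adjusted p 0.25, without Kbr set control array 1 at 48 h), PKM in 4 of 6 fits (highest adjusted p 0.312, without Kbr set control array 2 at 48 h) and PFKL in 4 of 6 fits (highest adjusted p 0.122, without low dose array 2 at 48 h). Others lost were HK2 in 3 of 6 fits (highest adjusted p 0.222, without low dose array 1 at 48 h), EGLN3 in 3 of 6 fits (highest adjusted p 0.107, without low dose array 1 at 48 h), P4HA1 in 2 of 6 fits (highest adjusted p 0.0851, without low dose array 1 at 48 h) and PFKM in 1 of 6 fits (highest adjusted p 0.0918, without Kbr set control array 1 at 48 h). The other settings ended the calls of HK2, PFKL, PKM, CA12 and ANKRD37 without a filter (adjusted p = 0.0596, 0.0507, 0.0705, 0.0896 and 0.0783) and PKM after centring (adjusted p = 0.077). Further ones were PKM after quantile normalization (adjusted p = 0.0781), HK2, PFKL and EGLN3 with probe sets averaged (adjusted p = 0.22, 0.0683 and 0.102) and HK2, PFKL, PFKM, PFKP, PKM, CA12, ANKRD37, P4HA1 and NDRG1 with the compared groups alone.

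The high dose differed from the low dose in 1 member at 24 h, ADM (0.80 ± 0.21, adjusted p = 0.0252), with 0.685% of all genes higher. With 1 array left out, the call was lost for ADM in 3 of 6 fits (highest adjusted p 0.177, without low dose array 1 at 24 h), and it was lost with the compared groups alone (adjusted p = 0.229). After centring, all genes split into 178 and 218 in place of 76 and 411. With the replicate number as a block, ENO2 (-0.59, adjusted p = 0.0111) and PDK1 (-0.53, adjusted p = 0.0273) passed as well.

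At 48 h, 2 members were higher at the high dose and 6 lower, with 6.46% and 17.3% of all genes. After centring, the members were 3 and 2, and all genes 1492 and 1237 in place of 716 and 1922. ADM was higher (1.17 ± 0.21, adjusted p = 0.000301), as was KDM3A (0.41 ± 0.10). PDK1 read 7.55, 7.28 and 6.92 at the high dose and 8.74, 8.15 and 7.94 at the low (-0.96 ± 0.16, adjusted p = 4.16e-05), without overlap, and ENO2, the neuronal enolase, was lower too (-0.82 ± 0.21). The other falls were SLC2A3 -0.37, PFKM -0.30, BNIP3L -0.30 and BNIP3 -0.27. In the blocked fit, PFKL (-0.46, adjusted p = 0.0078) and CA12 (-0.80, adjusted p = 0.0208), here unshifted, passed as well. Calls lost with 1 array left out were SLC2A3 in 6 of 6 fits (highest adjusted p 0.12, without high dose array 3 at 48 h) and BNIP3 in 4 of 6 fits (highest adjusted p 0.213, without low dose array 1 at 48 h). Others lost were KDM3A in 3 of 6 fits (highest adjusted p 0.0737, without high dose array 1 at 48 h), PFKM in 3 of 6 fits (highest adjusted p 0.242, without high dose array 2 at 48 h) and BNIP3L in 2 of 6 fits (highest adjusted p 0.0565, without low dose array 1 at 48 h). In other settings, calls ended for SLC2A3, PFKM and BNIP3 without a filter (adjusted p = 0.0676, 0.0534 and 0.0697) and SLC2A3, PFKM, BNIP3 and BNIP3L after centring (adjusted p = 0.124, 0.176, 0.123 and 0.0951). Further ones were SLC2A3 after quantile normalization (adjusted p = 0.0563) and SLC2A3, PFKM, PDK1, BNIP3, BNIP3L and KDM3A with the compared groups alone.

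In the Kbr set the controls also changed with time, from 24 to 48 h. 5 members rose and 2 fell, with 5.08% and 7.16% of all genes (650 and 585 after centring in place of 564 and 794). PFKFB3 (0.54 ± 0.17), BNIP3L (0.51 ± 0.11), MXI1 (0.49 ± 0.10) and BNIP3 (0.48 ± 0.12) rose, and P4HA2 (-0.67 ± 0.10) and SLC2A1 (-0.64 ± 0.13) fell. With the replicate block PKM (-0.35, adjusted p = 0.00522) and KDM3A (0.27, adjusted p = 0.0362) passed too. Calls lost with 1 array left out were PFKFB3 in 4 of 6 fits (highest adjusted p 0.338, without Kbr set control array 3 at 24 h), PFKM in 3 of 6 fits (highest adjusted p 0.206, without Kbr set control array 1 at 48 h) and BNIP3 in 2 of 6 fits (highest adjusted p 0.095, without Kbr set control array 1 at 48 h). Calls also ended for PFKFB3 without a filter (adjusted p = 0.067) and SLC2A1, PFKM, PFKFB3, BNIP3, BNIP3L, P4HA2 and MXI1 with the compared groups alone.

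**Figure D4:**
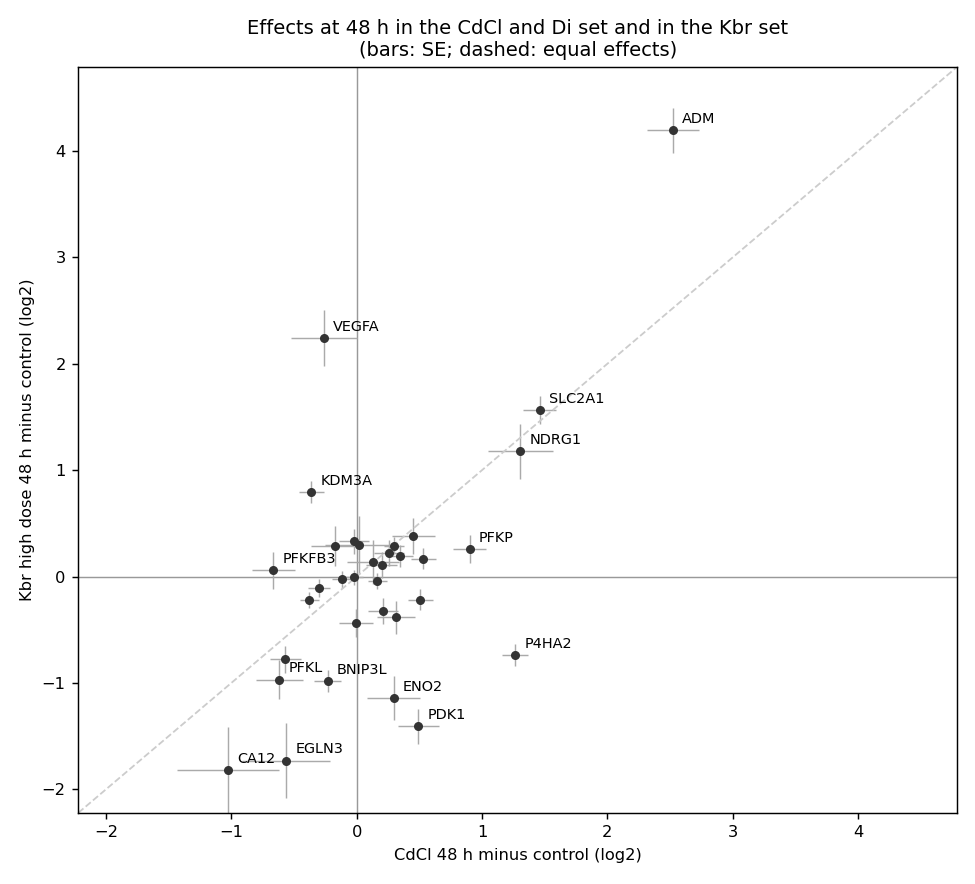
Log2 difference from control at 48 h with CdCl (horizontal) and with the high dose of Kbr (vertical) for the 34 measured genes, with SE bars and a dashed line of equal effects. PDK1 (0.49 and -1.41) and P4HA2 (1.27 and -0.74) lie below the line at lower right, ADM (2.52 and 4.19) and VEGFA (-0.26 and 2.24) above it.

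The sets shared no array, so their effects at 48 h, each against its own controls, could be tested against each other; set and agent cannot be told apart in that test. The CdCl effect was above that of the high Kbr dose for 9 members and below it for 4, with 27.9% and 22.3% of all genes. It was higher for P4HA2 (2.00 ± 0.15, adjusted p = 1.41e-11), PDK1 (1.90 ± 0.23, adjusted p = 1.42e-07), ENO2 (1.44 ± 0.30) and BNIP3L (0.75 ± 0.15), and lower for VEGFA (-2.50 ± 0.37, adjusted p = 2.69e-06), ADM (-1.67 ± 0.30), KDM3A (-1.16 ± 0.15) and PFKFB3 (-0.72 ± 0.24). With the replicate number as a block, ALDOA (-0.46, adjusted p = 0.000444), PKM (-0.35, adjusted p = 0.0181), ENO1 (0.21, adjusted p = 0.027) and EGLN3 (1.17, adjusted p = 0.0298) passed too, though the EGLN3 means lay below 4 in every group but the Kbr control. Without 1 array, the call was lost for PGAM1 in 5 of 12 fits (highest adjusted p 0.108, without Kbr set control array 3 at 48 h) and PFKFB3 in 3 of 12 fits (highest adjusted p 0.0532, without high dose array 2 at 48 h). Other settings ended those of PGAM1 after centring (adjusted p = 0.117) and PGAM1 after quantile normalization (adjusted p = 0.0592). Further ones were PGAM1 with the compared groups alone.

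The Di effect was above the Kbr effect for 12 members and below it for 4, with 23.6% and 19.9% of all genes. PDK1 (2.18 ± 0.23), P4HA2 (2.04 ± 0.15), ENO2 (1.62 ± 0.30) and EGLN3 (1.31 ± 0.50) were higher, and ADM (-1.51 ± 0.30), VEGFA (-1.47 ± 0.37), TPI1 (-0.72 ± 0.15) and MXI1 (-0.64 ± 0.14) lower. For EGLN3 the means lay below 4 in both treated groups and in the Di set control, so this value describes signal near the floor. The comparisons of CdCl and of Di with Kbr share the Kbr arrays. In the blocked fit, PFKL (0.58, adjusted p = 0.0104), CA12 (0.93, adjusted p = 0.0392), GPI (-0.30, adjusted p = 0.0326) and PGAM1 (-0.32, adjusted p = 0.0207) passed too. Without 1 array, the call was lost for BNIP3 in 8 of 12 fits (highest adjusted p 0.152, without Kbr set control array 1 at 48 h) and HK2 in 8 of 12 fits (highest adjusted p 0.141, without high dose array 3 at 48 h). Others lost were EGLN3 in 6 of 12 fits (highest adjusted p 0.0994, without Di array 1 at 48 h), PFKM in 3 of 12 fits (highest adjusted p 0.0871, without high dose array 2 at 48 h) and SLC2A1 in 3 of 12 fits (highest adjusted p 0.0987, without Kbr set control array 3 at 48 h). Other settings ended those of HK2, BNIP3 and EGLN3 without a filter (adjusted p = 0.0851, 0.0698 and 0.0734) and HK2 and EGLN3 with probe sets averaged (adjusted p = 0.0964 and 0.0862). Further ones were SLC2A1, HK2, PFKM and BNIP3 with the compared groups alone.

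Across arrays without shared samples, the 23 members raised by CdCl at 12 h included 6 that rose with the high Kbr dose at 48 h (SLC2A1, PGK1, VEGFA, ADM, KDM3A and NDRG1) and 8 that fell there (SLC2A3, PFKFB4, ENO2, LDHA, PDK1, BNIP3, BNIP3L and P4HA2). Those 8 are 34.8% of the 23 and 66.7% of the 12 that fell. The 7 that rose with the high Kbr dose at 48 h all rose with Di at 48 h too, while SLC2A3, PDK1 and P4HA2 rose with Di and fell with Kbr. These overlaps were not counted over all genes, so whether they are particular to the list is not known.

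**Figure D5:**
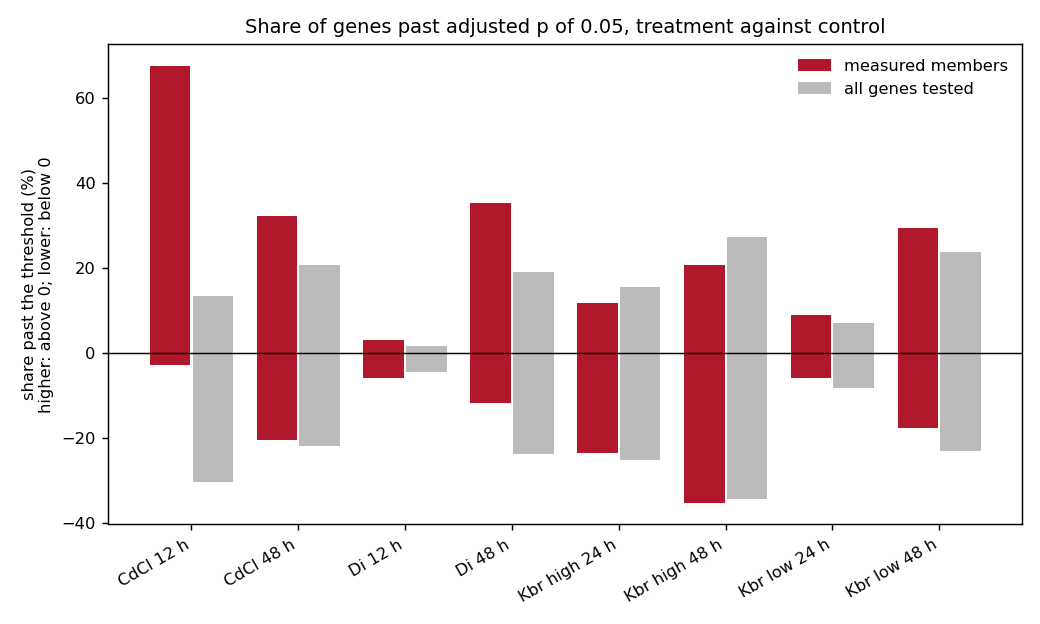
Share of the 34 measured members (red) and of all 11092 genes tested (grey) that rose (above 0) or fell (below 0) past an adjusted p of 0.05 in each comparison with control. CdCl at 12 h has 67.6% of members raised against 13.4% of all genes, and with Kbr at 24 h and the high dose at 48 h the share that rose was near or under that of all genes.

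Other genes of the pathway were counted from lists by function, also chosen with earlier results of these data known. Of 28 other hypoxia targets 21 were measured. CdCl at 12 h raised 12 of the 21, where 13.4% of all genes rose, and limma passed none that fell (0 at an unadjusted p under 0.05) where 30.5% of all genes did. At 48 h CdCl raised 8 and lowered 6 (20.7% and 22% of all genes). Di lowered 1 at 12 h (4.6% of all genes), and at 48 h it raised 5 and lowered 5 (19.1% and 23.9%). The high Kbr dose raised 2 and lowered 9 at 24 h (15.4% and 25.3%), and raised 3 and lowered 11 at 48 h (27.3% and 34.5%). The low dose raised 1 at 24 h and 4 at 48 h (6.93% and 23.8%), and limma passed none that fell (4 and 1 at an unadjusted p under 0.05, with 8.28% and 23.2% of all genes lower).

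The largest rises among these with CdCl at 12 h were STC2 (4.01 ± 0.56), LOX (1.70 ± 0.45) and INSIG2 (1.37 ± 0.14). STC2 codes for stanniocalcin-2, a secreted glycoprotein that is also a target of endoplasmic reticulum stress signalling, and LOX crosslinks collagen. STC2 also rose with CdCl at 48 h (1.64 ± 0.56), with Di at 48 h (2.84 ± 0.56) and with the low Kbr dose at 48 h (2.01 ± 0.56). LOX fell with the high Kbr dose at 48 h (-1.46 ± 0.45). The changes of PLOD2, a collagen lysyl hydroxylase, were 1.03 ± 0.19 with CdCl at 12 h, -0.96 ± 0.19 with CdCl at 48 h and -0.72 ± 0.19 with the high Kbr dose at 48 h. GBE1, the glycogen branching enzyme, changed by 1.00 ± 0.11 with CdCl at 12 h, 0.68 ± 0.11 with CdCl at 48 h, 1.36 ± 0.11 with Di at 48 h and -0.28 ± 0.11 with the high Kbr dose at 48 h. IGFBP3, a binding protein of insulin-like growth factors, changed in 3 comparisons: -0.83 ± 0.30 with CdCl at 48 h, at least 2.79-fold lower with Di at 48 h and -1.14 ± 0.30 with the high Kbr dose at 24 h. The differences of DDIT4, an inhibitor of mTOR signalling, were -0.82 ± 0.25 with CdCl at 48 h, -1.28 ± 0.25 with the high Kbr dose at 24 h and -1.05 ± 0.25 with the high Kbr dose at 48 h. VLDLR, a lipoprotein receptor, fell in 5 comparisons: -0.80 ± 0.14 with CdCl at 48 h, -0.47 ± 0.14 with Di at 12 h, -0.71 ± 0.14 with Di at 48 h, -0.82 ± 0.14 with the high Kbr dose at 24 h and -0.97 ± 0.14 with the high Kbr dose at 48 h.

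TFRC, the transferrin receptor, whose messenger is also stabilized when iron is low, changed by 0.66 ± 0.18 with CdCl at 48 h, 0.51 ± 0.18 with Di at 48 h, 0.66 ± 0.18 with the low Kbr dose at 24 h, 0.95 ± 0.18 with the low Kbr dose at 48 h, 0.95 ± 0.18 with the high Kbr dose at 24 h and 1.40 ± 0.18 with the high Kbr dose at 48 h. For TIGAR, which lowers the activator of phosphofructokinase, the differences were 0.97 ± 0.13 with Di at 48 h, 0.58 ± 0.13 with the low Kbr dose at 24 h, 1.06 ± 0.13 with the low Kbr dose at 48 h, 0.61 ± 0.13 with the high Kbr dose at 24 h and 1.25 ± 0.13 with the high Kbr dose at 48 h. PDHX, a part of the pyruvate dehydrogenase complex, changed by 0.32 ± 0.13 with CdCl at 48 h, 0.64 ± 0.13 with the low Kbr dose at 48 h, 0.53 ± 0.13 with the high Kbr dose at 24 h and 1.20 ± 0.13 with the high Kbr dose at 48 h. The comparisons within a set and time share controls.

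Of 16 other components of the HIF pathway 13 were measured. CdCl at 12 h raised 1 and lowered 2 (13.4% and 30.5% of all genes), and at 48 h 2 and 4 (20.7% and 22%). Di at 48 h raised 3 and lowered 1 (19.1% and 23.9%). The high Kbr dose raised 2 and lowered 2 at 24 h (15.4% and 25.3%) and 6 and 3 at 48 h (27.3% and 34.5%), and the low dose at 48 h raised 6 and lowered 1 (23.8% and 23.2%). EPAS1, the HIF-2 alpha subunit, rose by 1.13 ± 0.21 with CdCl at 12 h, 0.75 ± 0.21 with Di at 48 h, 1.36 ± 0.21 with the low Kbr dose at 48 h and 1.02 ± 0.21 with the high Kbr dose at 48 h.

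Of 22 other glycolysis and lactate genes 11 were measured. CdCl raised 2 and lowered 2 at 12 h (13.4% and 30.5% of all genes) and 1 and 3 at 48 h (20.7% and 22%). Di at 48 h raised 1 and lowered 5 (19.1% and 23.9%), and the high Kbr dose raised 1 and lowered 4 at 24 h (15.4% and 25.3%) and 3 and 6 at 48 h (27.3% and 34.5%). ENO3, the muscle enolase, fell: its differences were -0.88 ± 0.29 with CdCl at 12 h, -1.36 ± 0.29 with Di at 48 h and -1.01 ± 0.29 with the high Kbr dose at 48 h. BPGM, which makes the red cell effector of haemoglobin, differed by 0.77 ± 0.16 with CdCl at 12 h, 1.17 ± 0.16 with CdCl at 48 h and -0.47 ± 0.16 with Di at 48 h. HKDC1, a hexokinase relative, rose by 1.17 ± 0.29 with CdCl at 12 h, 1.28 ± 0.29 with the low Kbr dose at 48 h and 1.10 ± 0.29 with the high Kbr dose at 48 h. SLC2A2, the low-affinity glucose transporter of the liver and kidney, fell with Kbr at 24 h at both doses (-1.30 ± 0.34 low, -1.30 ± 0.34 high). SLC16A7, a monocarboxylate transporter, fell in 4 comparisons: -1.31 ± 0.17 with Di at 48 h, -0.86 ± 0.17 with the low Kbr dose at 48 h, -0.59 ± 0.17 with the high Kbr dose at 24 h and -1.52 ± 0.17 with the high Kbr dose at 48 h.

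Of 18 genes of pyruvate entry and gluconeogenesis 12 were measured. CdCl raised 2 and lowered 5 at 12 h (13.4% and 30.5% of all genes) and 4 and 5 at 48 h (20.7% and 22%). Di raised 1 and lowered 7 at 48 h (19.1% and 23.9%). The high Kbr dose raised 1 and lowered 6 at 24 h (15.4% and 25.3%) and 1 and 5 at 48 h (27.3% and 34.5%). PDK4, a pyruvate dehydrogenase kinase usually raised by fasting, fell with CdCl (-2.47 ± 0.24) and Di (-2.31 ± 0.24) at 48 h. PDP1, the phosphatase that opposes these kinases, changed by 0.88 ± 0.15 with CdCl at 12 h, 1.66 ± 0.15 with CdCl at 48 h, 1.24 ± 0.15 with Di at 48 h and -0.56 ± 0.15 with the high Kbr dose at 24 h. MPC1, a subunit of the mitochondrial pyruvate carrier, fell in 5 comparisons: -0.50 ± 0.15 with CdCl at 48 h, -0.80 ± 0.15 with Di at 48 h, -0.90 ± 0.15 with the low Kbr dose at 48 h, -0.68 ± 0.15 with the high Kbr dose at 24 h and -1.62 ± 0.15 with the high Kbr dose at 48 h. For PDK3, another of the kinases, the differences were 0.68 ± 0.13 with CdCl at 12 h, -0.72 ± 0.13 with Di at 48 h, -0.49 ± 0.13 with the low Kbr dose at 24 h, -1.05 ± 0.13 with the low Kbr dose at 48 h, -0.69 ± 0.13 with the high Kbr dose at 24 h and -1.49 ± 0.13 with the high Kbr dose at 48 h. PCK2, the mitochondrial PEP carboxykinase, fell with CdCl at 12 h (-0.79 ± 0.33) and Di at 48 h (-0.99 ± 0.33).

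TXNIP, the glucose-responsive gene that restrains glucose uptake, was lower in all 8 comparisons with control, some of which share controls. Its differences were -1.18 ± 0.43 and -1.07 ± 0.43 with CdCl, -2.20 ± 0.43 and -1.36 ± 0.43 with Di, at the earlier and the later time, and -2.19 ± 0.43 with the low and -2.91 ± 0.43 with the high dose of Kbr at 24 h. At 48 h the means were under 4 at both Kbr doses, at least 3.26-fold lower than the control in each case. ARRDC4, which responds to glucose through the same factor, fell with Di at 12 h, being at least 1.52-fold lower. Of the 4 genes on this list 3 were measured.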

How the data were processed

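HK-2 total RNA was turned into biotin-labelled cRNA for Affymetrix arrays of 1 colour (per the labels' protocols). The authors deposited log2 expression per probe set, made with GCRMA according to the submitters' processing notes. Which GCRMA release and options they used is not given in the sources used here. GCRMA corrects background and normalizes between arrays, which compresses differences of dim genes and partly removes a shift shared by most genes. Values ran from 0.714 to 16.1, with array medians of 2.91 to 3.02; the number of arrays, not a read depth, limits the precision.

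Probe sets above 4 on at least 3 arrays and assigned to 1 gene in the platform annotation were used, 1 per gene, with the highest mean. limma 3.58.1 (R 4.3.3) fitted 12 group means over all 36 arrays, with Benjamini-Hochberg adjustment over 11092 genes. For means under 4, folds were taken against 4. The fit was tested on simulated data with independent noise on each array. That test could not check the fit where same-numbered arrays of the Kbr set deviate together. Of the measured members, 17 had several kept probe sets and 18 were read by sets that can bind related transcripts.

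The members, lists and tests were chosen with earlier results of these data known. Per comparison with control the 6 largest rises and 3 largest falls among members are named with array values, in other comparisons the 4 largest each way, and 3 each way of the other pathway genes; SLC2A3, HK1 and other members follow in ranges and short lists. Replicate numbers paired the Kbr arrays. In all 45 pairs of same-numbered arrays from different groups the deviations went together (r 0.218 to 0.701, median 0.456). The median for other numbers (-0.226) is no separate evidence, since deviations from a group mean sum to 0 over its 3 arrays. In the other set 8 of 45 pairs passed 0.1. The labels do not say what the numbers share. Alternatives were no filter, a filter at 6, centring, quantile normalization, the mean of probe sets, the compared groups alone, a replicate block and leaving out each array.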

Additional observations from a re-analysis of the deposited data

Results flagged for a closer look

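For 5 contrasts the difference between effects was itself tested with limma, in times of harvest or in agents, and the members past an adjusted p of 0.05 were singled out for it. Each value is a difference of log2 differences, and none was weighed for its cause.

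The CdCl effect at 48 h differed from that at 12 h in 17 members, all lower at 48 h. Relative to the median of all genes, HK2 changed by -1.90 (unshifted -1.78, from unshifted effects of 2.23 at 12 h and 0.45 at 48 h), CA12 by -1.88, PFKFB4 by -1.68 and PFKFB3 by -1.66. The unshifted effects of PFKFB3 were 0.87 and -0.66. The controls at the 2 times differ as well, in 18 members.

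The Di effect differed between the times in 13 members. NDRG1 changed by 2.88, ADM by 2.56, SLC2A1 by 1.59 and PFKP by 1.26, and MXI1 changed by -0.62, LDHA by -0.48 and TPI1 by -0.44. The NDRG1 effect was -0.51 at 12 h, not past the test, and 2.37 at 48 h.

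Between 24 and 48 h the effect of the high Kbr dose differed in 4 members, ADM (1.51), VEGFA (1.40), SLC2A1 (0.95) and BNIP3L (-0.45).

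At 48 h the CdCl effect differed from the effect of the high Kbr dose in 13 members: P4HA2 by 2.00, PDK1 by 1.90, ENO2 by 1.44 and BNIP3L by 0.75, and VEGFA by -2.50, ADM by -1.67, KDM3A by -1.16 and PFKFB3 by -0.72. PDK1 and P4HA2 rose with CdCl and fell with Kbr, and KDM3A fell with CdCl (-0.36) and rose with Kbr (0.80).

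The Di effect differed from the Kbr effect in 16 members, among them PDK1 (2.18), P4HA2 (2.04), ENO2 (1.62), EGLN3 (1.31), ADM (-1.51), VEGFA (-1.47), TPI1 (-0.72) and MXI1 (-0.64). Set and agent cannot be told apart in these comparisons. Groups of 3 arrays are too small for the test of single stray arrays, so none was made.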

How the results depend on the processing

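Of 245 calls of members over the 19 comparisons, 245 kept direction and threshold with a filter at 6, and 245 did with the replicate block. Calls lost numbered 23 without a filter, 14 after centring, 11 after quantile normalization, 15 with the mean of probe sets and 51 with the compared groups alone, and leaving out 1 array lost 224 of 1848. Of the 15, 2 changed sign: ENO1 with CdCl against Di at 48 h to -0.012 (adjusted p = 0.937) and P4HA2 in controls at 48 against 12 h to -0.10 (adjusted p = 0.72). Counts of members moved by over 1.5 times in these cases. With Di at 12 h the count of 3 became 1 after centring, 1 after quantile normalization and 0 with the compared groups alone (0 to 2 with 1 array left out). With the low Kbr dose the count at 24 h, 5, became 8 with the replicate block and 1 with the compared groups alone (3 to 5), and that at 48 h, 16, became 7 with the compared groups alone. Between the Kbr doses the count at 24 h, 1, became 2 with the mean of probe sets, 3 with the replicate block and 0 with the compared groups alone (0 to 1), and that at 48 h, 8, became 5 without a filter, 5 after centring and 2 with the compared groups alone (4 to 7). In the Kbr set controls the count of 7 became 0 with the compared groups alone (4 to 8), and for the change of the high dose effect the count of 4 became 8 with the replicate block and 2 with the compared groups alone (3 to 7). The compared groups alone leave fewer arrays to estimate the spread. In the CdCl and Di set same-numbered arrays did not deviate together (median r -0.014). The block was fitted in both sets at once, with a spread shared by all 36 arrays, and blocking either set alone was not tested. In that joint fit the count over all genes for Di at 12 h moved from 695 to 1662. The joint fit added 23 member calls over the comparisons within the CdCl and Di set and ended none. Over all genes in the Kbr set, the block moved the counts from 1687 to 2720 (low dose, 24 h), 487 to 1171 (doses at 24 h), 1358 to 2498 (controls) and 1663 to 2668 (change of the high dose effect). Signal near background limits EGLN3, PFKFB4 and the dim probe sets of HK2.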
